A study of Gallus gallus with 15 samples.

Results

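The genes described here encode the core machinery of macroautophagy (hereafter autophagy), and they were measured by RNA-Seq in the breast muscle of 15 female Korat chickens (KRC). Members were chosen by symbol: every gene whose name began with ATG and a number, MAP1LC3, GABARAP or WIPI, the kinases ULK1 to ULK4, and a set of named subunits, membrane proteins and cargo receptors. This gave 42 genes of the 17475 with a row, of which 41 were among the 11861 genes tested, and WDR45, also named by the rule, was not analysed here. KRC is a slow-growing cross of Thai indigenous males with hens of the SUT breeder line. All birds were 10 weeks old, with 5 birds fed a diet with 1% β-alanine (group B), 5 birds fed a diet with 0.5% L-histidine (group C) and 5 birds fed the diet without a supplement (group A), the supplements being given from 4 to 10 weeks of age. Each bird came from its own cage of 20 birds, so that the 5 birds of a group are 5 separate animals and 5 separate cages. Carnosine, a dipeptide of muscle, is made from β-alanine and L-histidine, and the design asks which breast muscle genes differ when either is added to the diet. The doses of the supplements differed.

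Autophagy encloses part of the cytoplasm in a double membrane, the autophagosome, and delivers it to the lysosome for degradation. The ULK kinase complex starts the process, a phosphatidylinositol 3-kinase complex marks the membrane, and vesicle and lipid-transfer proteins enlarge it. A ubiquitin-like conjugation system then attaches proteins of the ATG8 family (LC3 and GABARAP) to the membrane, where cargo receptors bind them. In skeletal muscle the pathway is known for the turnover of mitochondria and of proteins during fasting. Only mRNA was measured, and neither the number of autophagosomes nor the lipidated form of LC3 was assayed.

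The total count per bird was 13957490 to 15381547 in group B, 13435756 to 14964384 in group C and 10620229 to 14553374 in group A. Levels are given as normalized FPKM, that is, counts divided by exonic length and by the library total, as in fragments per kilobase of exon, after scaling of the libraries by relative log expression. The muscle fibre markers ACTA1, TNNT3, TNNI2, MYLPF and CKMT2 were present in every bird, whereas PVALB was under the filter on low values and CKM and MYBPC2 were not analysed here. The summed level of the 6 measured fibre markers was 65832 to 90084 normalized FPKM in group B, 51529 to 98937 in group C and 79587 to 129466 in group A. The 8 immune markers summed to 224 to 390 in group B, 110.2 to 588 in group C and 109 to 346 in group A. The 6 adipocyte markers summed to 40.2 to 72.1 in group B, 56.1 to 238 in group C and 53.6 to 401 in group A. The 6 endothelial markers summed to 41.4 to 73.0 in group B, 56.7 to 86.7 in group C and 45.7 to 66.8 in group A. For fibroblasts (7 of 7 markers measured) the sum was 216 to 359.8 in group B, 218 to 416 in group C and 180.5 to 471 in group A. For smooth muscle and pericytes (6 of 6) it was 56.3 to 114 in group B, 85.4 to 269.9 in group C and 80.6 to 155 in group A, and for erythrocytes (3 of 5) 42.5 to 142 in group B, 50.2 to 92.7 in group C and 33.5 to 131 in group A. No marker of these lists was at 0 in every bird. Of the tested markers, CD4 and CD8A were at 0 in bird A4, CIDEC in B1, B3 and A1, and THRSP in B3 and B4.

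Birds A3 and A4 of the non-supplemented group stood apart from the other 13 birds in that short genes were high and long genes were low. The slope of the deviation of a gene's level on log2 exonic length was -0.27 in both birds, against -0.09 to 0.14 in the other birds. Bird A4 also had the smallest total count, 10620229. Among the β-alanine birds, B2 stood apart for the autophagy genes, though not for them alone. They took up 0.475% of all counts in B2, against 0.296% to 0.384% in the other 14 birds. Values without these birds are given beside several of the results that they move. Since whole muscle was sampled, fewer cells of a type and less RNA per cell cannot be told apart.

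No autophagy gene passed the test in either supplemented group. With edgeR's quasi-likelihood test, 0 of 41 autophagy genes had an adjusted p under 0.05 in group B and 0 of 41 in group C, and the share of all 11861 genes that did so was 0% in both comparisons. At an unadjusted p under 0.05, ATG7 and ATG14 were higher in group B, which is 2 of 41 genes against 4.47% of all genes, and 0 of 41 were lower, against 6.17%. In group C, RB1CC1, ATG14, ATG7, BNIP3L and TMEM41B were higher at this limit (5 of 41, against 7.98% of all genes), and ULK3, MAP1LC3B and GABARAPL2 were lower (3 of 41, against 11.2%). DESeq2 called 0 autophagy genes in group B, where its call rate was 0.224% higher and 0.24% lower, and 1 in group C, ULK3, which was lower. Its call rate in group C was 0.969% higher and 1.9% lower, and 38 of the 42 genes had an adjusted p there. The test on log2 FPKM with limma called 0 autophagy genes in both groups.

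The median absolute log2 fold change of the autophagy genes was 0.22 in group B, against 0.24 for all genes. In group C it was also 0.22, against 0.305 for all genes. With the sign kept, the median of the autophagy genes was 0.06 in group B, against -0.02 for all genes. In group C it was -0.02, against 0.01 for all genes. In group B, 25 of 41 had a positive log2 fold change (48.3% of all genes) and 16 a negative one (51.7%). In group C, 20 of 41 had a positive log2 fold change (51% of all genes) and 21 a negative one (49%). A fold of at least 1.5 was reached by ULK1 and ULK2 in group B, both higher (7.87% of all genes were higher by that fold, and 6.85% lower). In group C it was reached by ULK1, ULK2 and RB1CC1, which were higher (11.8% of all genes), and by ULK3 and SQSTM1, which were lower (9.85%). The 95% interval of the fold change lay within a 2-fold difference in either direction for 37 of 41 genes in group B and 33 of 41 in group C. Of all 11861 genes it did so for 7830 in group B and 7055 in group C. In both groups the median SE was 0.19 for the autophagy genes and 0.25 for all genes. Both comparisons use the same 5 non-supplemented birds. Without scaling of the libraries the median over all genes stood at 0.18 for group B and 0.29 for group C, and values given without scaling are to be read beside these medians. Without A3 and A4, 3 autophagy genes were higher at an unadjusted p under 0.05 in group B and 3 in group C, and 0 were lower in either group. The shares of all genes at that limit in this fit are not given here. The medians of the autophagy genes were then 0.15 in group B and 0.06 in group C, against 0.02 for all genes in each. Without B2 the median of the autophagy genes in group B was -0.01.

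**Figure D1:**
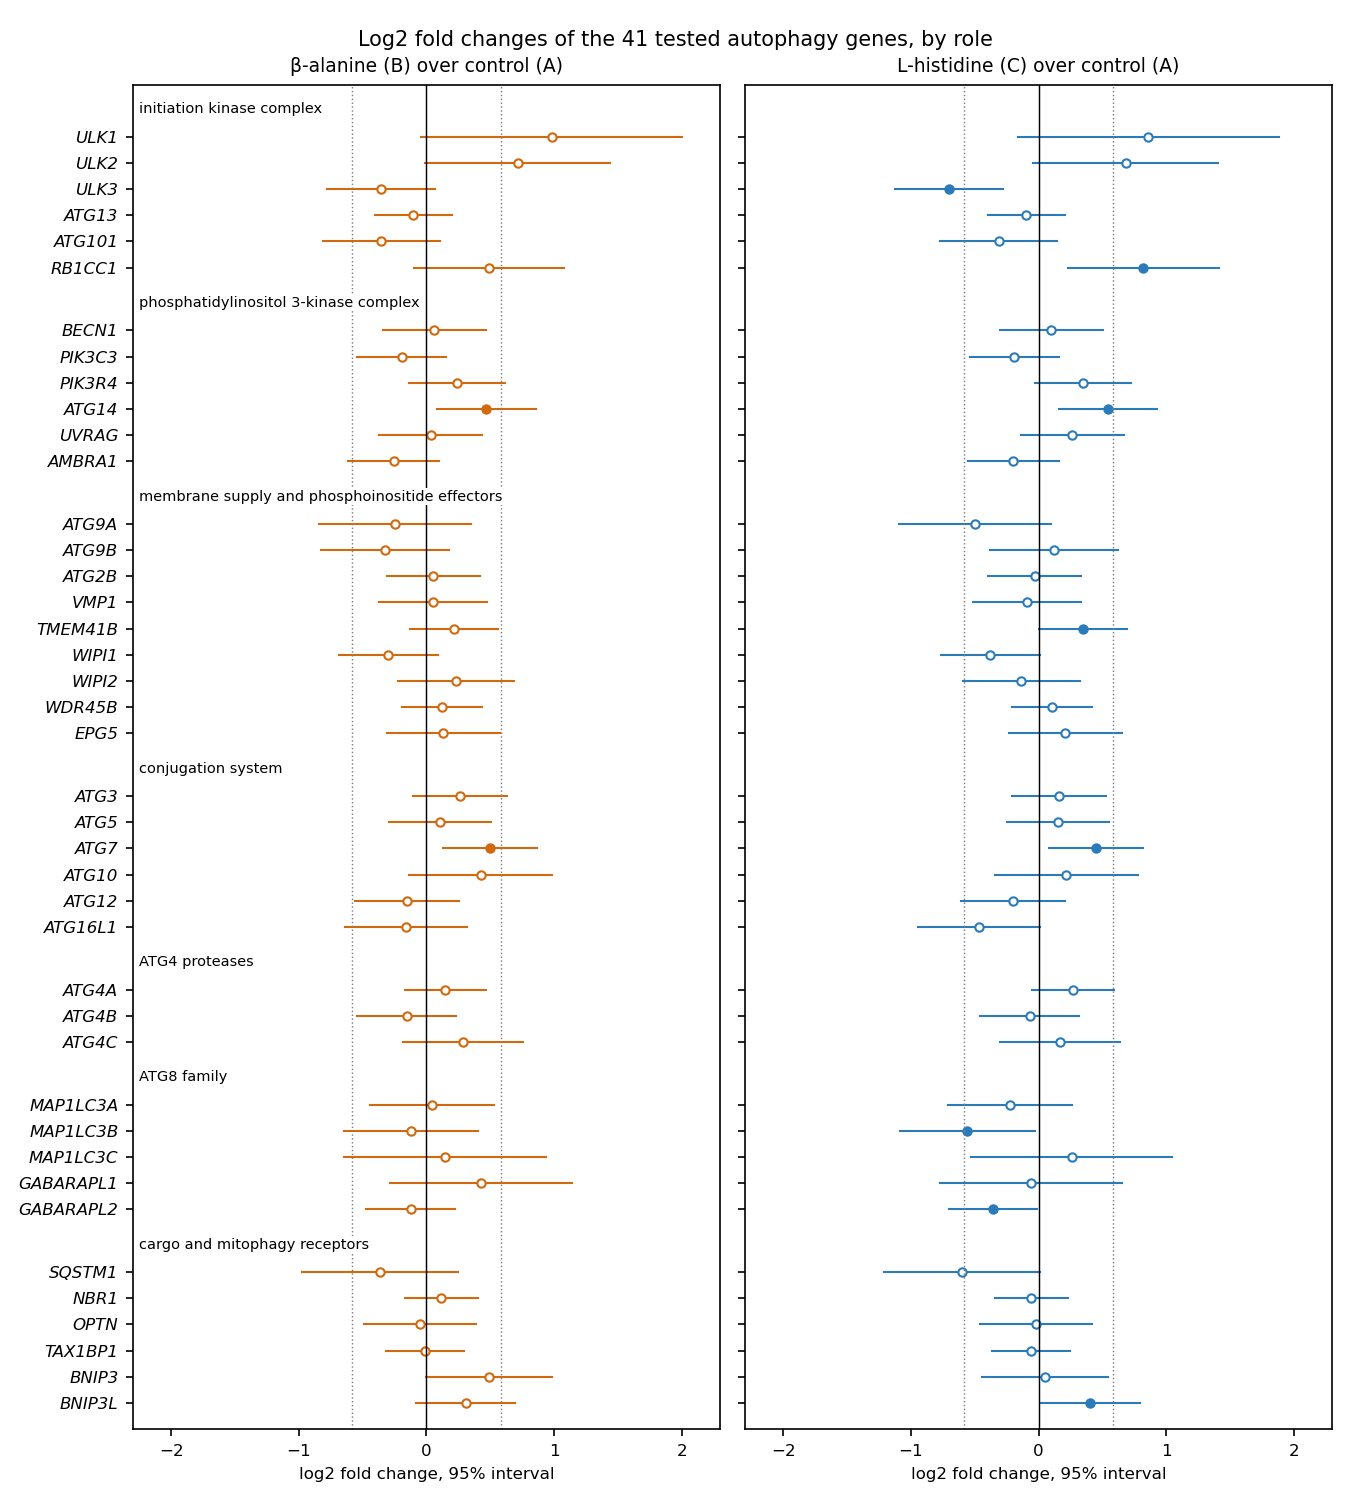
Log2 fold change (horizontal axis) of the 41 tested autophagy genes, grouped by role, for group B (left) and group C (right), each over group A. Points are edgeR estimates from 5 birds per group, lines are 95% intervals, filled points have an unadjusted p under 0.05 and dotted lines mark a fold of 1.5. No gene passed the adjusted limit, and the filled points are ATG14 and ATG7 on the left and ULK3, RB1CC1, ATG14, TMEM41B, ATG7, MAP1LC3B, GABARAPL2 and BNIP3L on the right.

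Of the ATG8 proteins and the cargo receptors, 5 genes made up the top of the list by level. MAP1LC3A averaged 250.3 normalized FPKM over the 15 birds and MAP1LC3B 236, and their order was not stable, since MAP1LC3A was the higher in 10 of 15 birds. OPTN followed at 147 and SQSTM1 at 135, with OPTN the higher in 10 of 15 birds. Next came BNIP3 at 94.1, ATG9A at 91.5 and WIPI1 at 69.5, and BNIP3 was above ATG9A in 7 of 15 birds, so these neighbours did not differ beyond their spread. WIPI1 was above TAX1BP1 (48.7) in 15 of 15 birds. At the lower end stood EPG5 at 1.42, ATG10 at 1.38, ATG4C at 1.09 and ATG7 at 0.728, the last below ATG4C in 13 of 15 birds. ULK4, a kinase relative with no established place in autophagy, was at 0.119 with 3 to 24 counts per bird and was not tested. ULK1 varied most over the 15 birds, with a 9.57-fold difference between its highest and lowest bird, and NBR1 and TAX1BP1 varied least, with 1.48-fold and 1.49-fold.

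**Figure D2:**
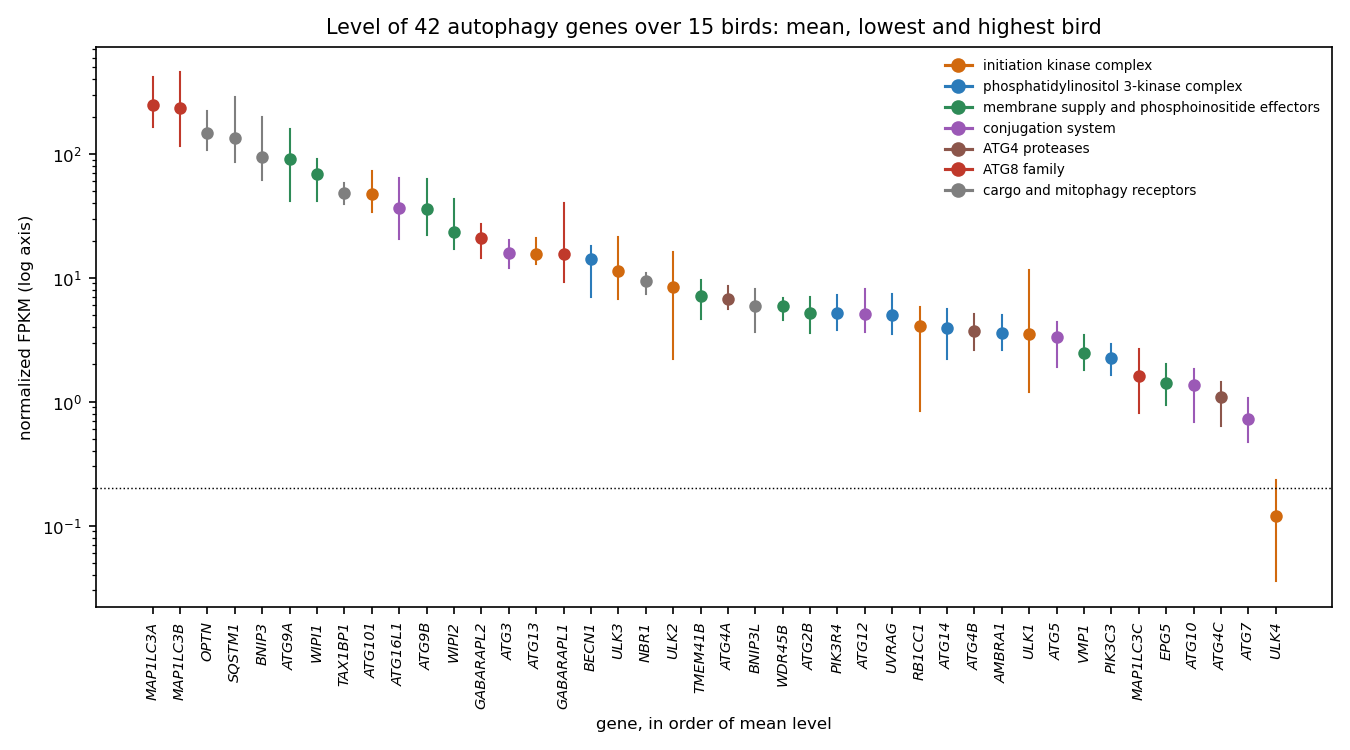
Mean level of the 42 autophagy genes over 15 birds (points) with the lowest and highest bird (lines), on a log axis of normalized FPKM and coloured by role. The dotted line marks 0.2 FPKM, the filter on the mean level, and ULK4 lies under it. The ATG8 proteins MAP1LC3A (250.3) and MAP1LC3B (236) are the highest and ATG7 (0.728) is the lowest of the genes tested.

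The initiation complex consists of the kinases ULK1 or ULK2 with ATG13, ATG101 and RB1CC1 (also called FIP200), the scaffold that holds the complex together. It held the largest positive fold changes of the list in both groups, while the lowest of group C was that of the related kinase ULK3, and none passed the adjusted limit. RB1CC1 (chromosome 2, 109932826 to 110008388 on GRCg6a) was at 4.60, 3.45, 4.44, 3.54 and 4.52 normalized FPKM in birds B1 to B5, 5.46, 4.98, 3.95, 5.67 and 5.81 in birds C1 to C5, and 3.16, 4.24, 3.43, 0.845 and 2.89 in birds A1 to A5. Every bird of group C except C3 was above every bird of group A, and A4 was the lowest of the 15. Group means were 4.11 ± 0.567 in group B, 5.17 ± 0.75 in group C and 2.91 ± 1.26 in group A (SD, n = 5 each). For RB1CC1, the log2 fold change in group C was 0.82 (SE 0.28, 95% interval 0.23 to 1.41, edgeR adjusted p = 0.178), and in group B it was 0.49 (SE 0.28, 95% interval -0.10 to 1.08, edgeR adjusted p = 0.527). Leaving out A4 gave 0.59 in group C and 0.26 in group B.

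ULK1 (chromosome 15, 2924873 to 2997535) was at 3.04, 11.5, 1.83, 1.79 and 3.47 normalized FPKM in birds B1 to B5, 2.35, 4.39, 3.79, 5.47 and 3.86 in birds C1 to C5, and 1.20, 4.68, 2.10, 1.63 and 1.28 in birds A1 to A5. B2 alone was far above the rest, and A2 was high among the non-supplemented birds. Averages were 4.32 ± 4.06 in group B, 3.97 ± 1.13 in group C and 2.18 ± 1.44 in group A (SD, n = 5 each). For ULK1, the log2 fold change in group B was 0.98 (SE 0.48, 95% interval -0.04 to 2.0, edgeR adjusted p = 0.482), and in group C it was 0.86 (SE 0.48, 95% interval -0.16 to 1.88, edgeR adjusted p = 0.33). Without B2 the value in group B was 0.21, and leaving out A2 gave 1.48 in group B and 1.36 in group C. Single birds thus decided the size of the ULK1 value in group B. In group C it ran from 0.71 to 1.36 when 1 bird at a time was left out.

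ULK2 (chromosome 19, 6954547 to 6990299), the kinase that acts beside ULK1, was at 10.1, 16, 8.78, 6.45 and 7.84 normalized FPKM in birds B1 to B5, 8.46, 11.4, 6.94, 12.0 and 9.35 in birds C1 to C5, and 11.9, 6.22, 5.69, 2.20 and 3.90 in birds A1 to A5. B2 was again the highest bird, A1 was close to the highest birds of group C, and A4 was the lowest. For ULK2, the log2 fold change in group B was 0.72 (SE 0.34, 95% interval -0.01 to 1.44, edgeR adjusted p = 0.471), and in group C it was 0.68 (SE 0.34, 95% interval -0.04 to 1.41, edgeR adjusted p = 0.284). All 5 birds of both supplemented groups were above the mean of group A. The value of ULK2 in group B was 0.47 without B2, and without A3 and A4 it was 0.43 in group B and 0.40 in group C. Leaving out A1 gave 1.12 in group B and 1.09 in group C.

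ULK3 (chromosome 10, 2867426 to 2872682), a relative of ULK1 and ULK2 known in mammals also for a part in hedgehog signalling, was at 9.0, 11.2, 11.5, 13.1 and 10.8 normalized FPKM in birds B1 to B5, 7.42, 9.06, 10.4, 10.2 and 6.78 in birds C1 to C5, and 11.4, 10.9, 16.5, 21.3 and 11.4 in birds A1 to A5. The groups C and A did not overlap, with 10.4 as the highest bird of group C and 10.9 as the lowest of group A, and A3 and A4 were the highest of the 15. This was 1 of 41 genes that were lower without overlap in group C, against 1.05% of all genes, and 0 of 41 were higher (0.978%). On average it was at 11.1 ± 1.46 in group B, 8.76 ± 1.61 in group C and 14.3 ± 4.56 in group A (SD, n = 5 each). For ULK3, the log2 fold change in group C was -0.70 (SE 0.20, 95% interval -1.13 to -0.28, edgeR adjusted p = 0.17), and in group B it was -0.36 (SE 0.20, 95% interval -0.78 to 0.06, edgeR adjusted p = 0.522). DESeq2 gave -0.71 with an adjusted p of 0.0445 in group C. Without A3 and A4 the log2 fold change by edgeR was -0.35 in group C and -0.01 in group B. Of the other subunits, ATG13 was at 13.0 to 20.9 over the 15 birds, with log2 fold changes of -0.10 in both groups. ATG101 was at 33.7 to 72.6, with -0.35 in group B and -0.31 in group C. With no strand or multi-mapping rule given in the sources used here, the treatment of reads that match several ULK kinases is not known. The same holds for the other families below.

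**Figure D3:**
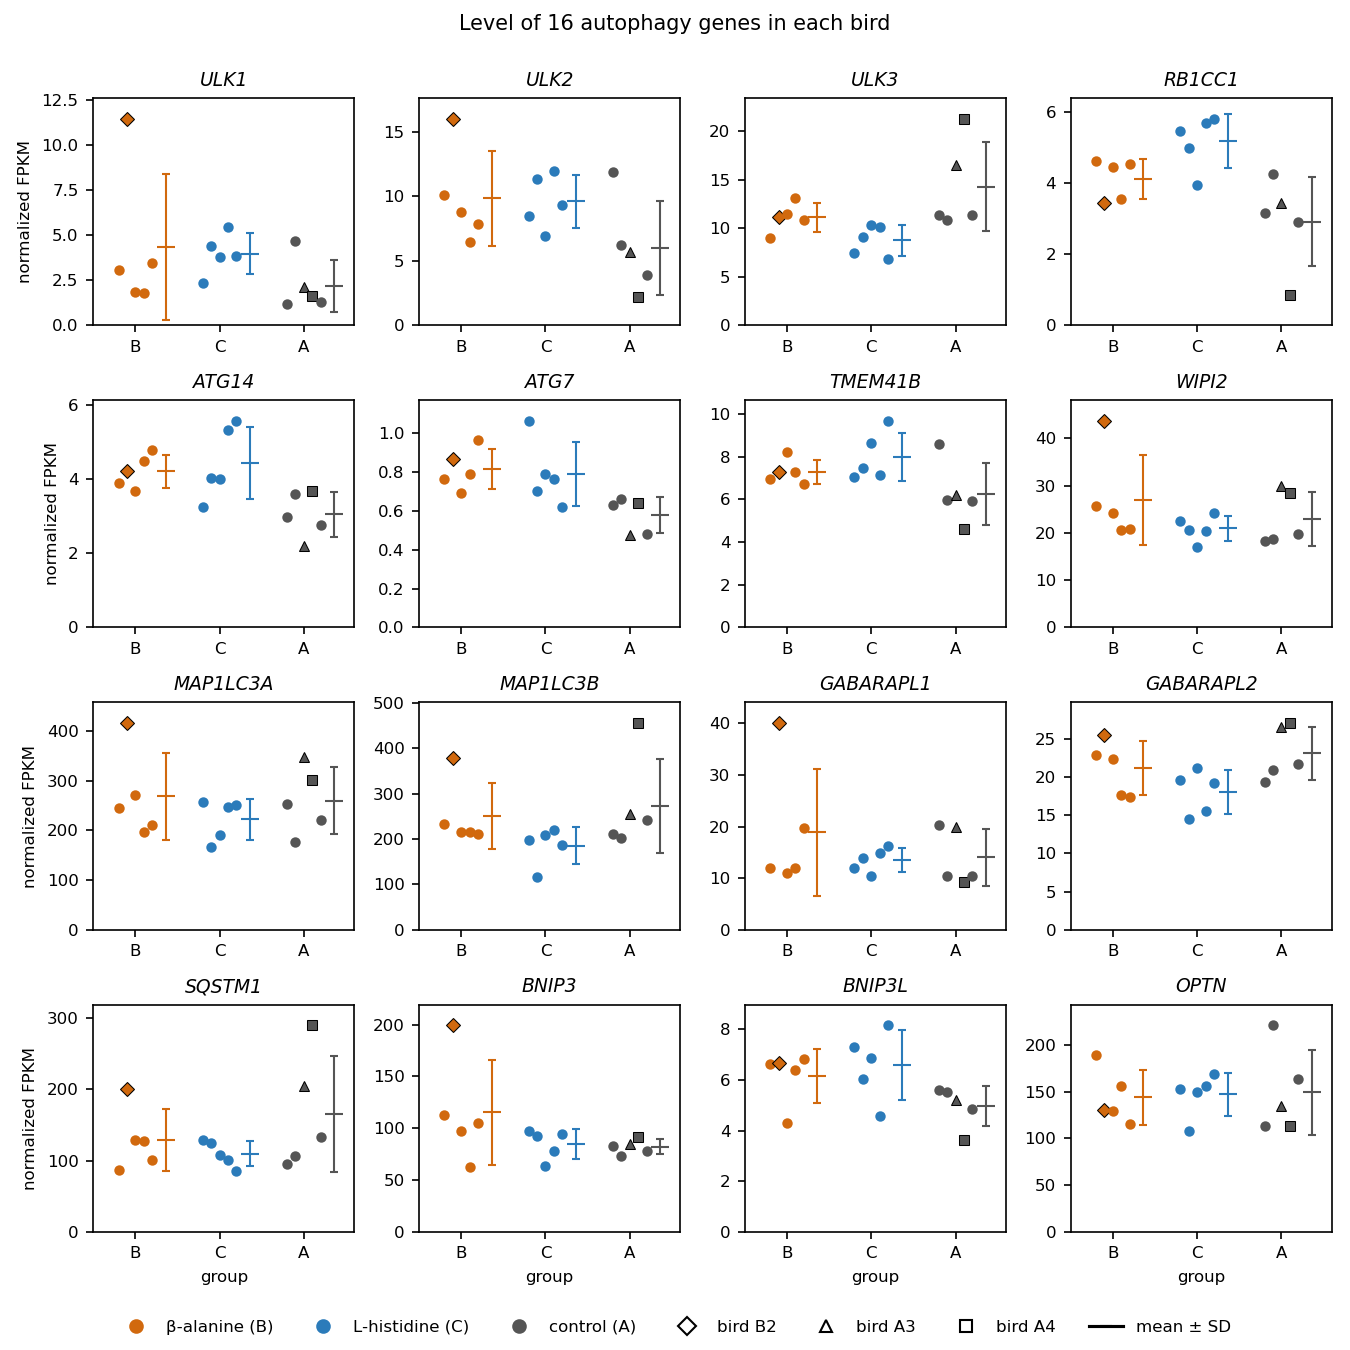
Normalized FPKM (vertical axes from 0) of 16 autophagy genes in each bird of groups B, C and A, with the mean ± SD of 5 birds beside each group. The diamond is bird B2, the triangle A3 and the square A4. B2 is the highest of the 15 birds for ULK1, ULK2, WIPI2, MAP1LC3A, GABARAPL1 and BNIP3, and A4 is the highest for ULK3, MAP1LC3B, GABARAPL2 and SQSTM1 and the lowest for ULK2, RB1CC1, TMEM41B, GABARAPL1 and BNIP3L.

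The phosphatidylinositol 3-kinase complex contains the lipid kinase PIK3C3 (VPS34), its partner PIK3R4, BECN1 and either ATG14, which directs it to autophagosomes, or UVRAG, which directs it to endosomes. ATG14 was higher in both supplemented groups at an unadjusted p under 0.05 without passing the adjusted limit. ATG14 (chromosome 5, 56371771 to 56389803) was at 3.89, 4.24, 3.69, 4.50 and 4.79 normalized FPKM in birds B1 to B5, 3.27, 4.04, 4.01, 5.34 and 5.58 in birds C1 to C5, and 2.99, 3.61, 2.21, 3.69 and 2.77 in birds A1 to A5. Of the 5 birds of group B, 4 were above every bird of group A, B3 was level with A4, and C1 was the lowest bird of group C. Mean levels were 4.22 ± 0.447 in group B, 4.45 ± 0.980 in group C and 3.05 ± 0.613 in group A (SD, n = 5 each). For ATG14, the log2 fold change in group B was 0.47 (SE 0.18, 95% interval 0.08 to 0.86, edgeR adjusted p = 0.437), and in group C it was 0.54 (SE 0.18, 95% interval 0.16 to 0.93, edgeR adjusted p = 0.177). This gene kept its direction in every alternative, between 0.37 and 0.67 in group B and between 0.45 and 0.83 in group C. So did ATG7, ULK1, ULK2, ULK3, RB1CC1, BNIP3L and TMEM41B, so this was not particular to ATG14. The alternatives include fits without scaling of the libraries. Leaving out 1 bird at a time, ATG14 ran from 0.37 to 0.54 in group B and from 0.45 to 0.64 in group C. For the other 5 genes of the complex the log2 fold changes lay between -0.26 (AMBRA1) and 0.24 (PIK3R4) in group B and between -0.20 (AMBRA1) and 0.35 (PIK3R4) in group C. BECN1 was at 12.9 to 18.0 normalized FPKM in 14 birds and at 6.98 in A4.

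The membrane of the autophagosome grows from vesicles with ATG9A or ATG9B, from lipid transferred by ATG2B, and with the endoplasmic reticulum scramblases VMP1 and TMEM41B. WIPI1, WIPI2 and WDR45B read the lipid mark, and EPG5 tethers the closed autophagosome to the lysosome. TMEM41B (chromosome 5, 9669293 to 9676929) was the only gene of this role with an unadjusted p under 0.05, in group C, and it was at 6.95, 7.28, 8.23, 7.29 and 6.71 normalized FPKM in birds B1 to B5, 7.07, 7.47, 8.64, 7.14 and 9.68 in birds C1 to C5, and 8.59, 5.97, 6.22, 4.61 and 5.92 in birds A1 to A5. C5 was the highest bird and A4 the lowest, but A1 was nearly as high as C3. For TMEM41B, the log2 fold change in group C was 0.35 (SE 0.16, 95% interval 0.00 to 0.70, edgeR adjusted p = 0.257), and in group B it was 0.22 (SE 0.16, 95% interval -0.13 to 0.56, edgeR adjusted p = 0.619). Leaving out A4 gave 0.26 in group C and 0.13 in group B.

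ATG9B (chromosome 2, 343922 to 352055) was at 31.7, 34.7, 26.6, 22.1 and 33.4 normalized FPKM in birds B1 to B5, 27.4, 44.5, 43.6, 53.9 and 33.0 in birds C1 to C5, and 30.0, 26.0, 33.2, 62.2 and 34.9 in birds A1 to A5. A4 was the highest of the 15 birds and B4 the lowest. For ATG9B, the log2 fold change in group B was -0.33 (SE 0.24, 95% interval -0.83 to 0.17, edgeR adjusted p = 0.608), and in group C it was 0.12 (SE 0.24, 95% interval -0.38 to 0.62, edgeR adjusted p = 0.795), a value that changed sign to -0.0064 without C4. Leaving out A4 gave -0.062 in group B and 0.38 in group C. WIPI2 (chromosome 14, 4448213 to 4469040), which recruits the conjugation system to the membrane and was picked out after its values were seen, was at 25.6, 43.7, 24.3, 20.5 and 20.9 normalized FPKM in birds B1 to B5, 22.6, 20.5, 17.1, 20.4 and 24.2 in birds C1 to C5, and 18.3, 18.7, 30.0, 28.5 and 19.7 in birds A1 to A5. B2 was the highest bird, followed by A3 and A4. For WIPI2, the log2 fold change in group B was 0.23 (SE 0.22, 95% interval -0.23 to 0.69, edgeR adjusted p = 0.701), which was -0.01 without B2, and in group C it was -0.13 (SE 0.22, 95% interval -0.59 to 0.32, edgeR adjusted p = 0.744), which was 0.20 without scaling of the libraries and 0.15 without A3 and A4. ATG9A was 41.7 in C2, 145.6 in A3 and 159.9 in A4, with log2 fold changes of -0.25 in group B and -0.50 in group C. A3 and A4 were the highest birds for ATG9A, and its values without them are not given here. WIPI1 was at 41.9 to 91.0 normalized FPKM, with -0.30 in group B and, in group C, -0.38. Here the remaining 4 genes, ATG2B, VMP1, WDR45B and EPG5, had log2 fold changes between 0.05 and 0.13 in group B and between -0.09 and 0.21 in group C.

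In the conjugation system ATG7 is the activating enzyme, ATG3 and ATG10 are the transfer enzymes, and ATG5, ATG12 and ATG16L1 form the ligase that attaches ATG8 proteins to the membrane. ATG7, the gene with the lowest level of those tested, was the only autophagy gene whose group B birds were all above the group A birds. This was 1 of 41 genes against 0.852% of all genes, and 0 of 41 were lower without overlap (0.868%). ATG7 (chromosome 12, 4788048 to 4897659) was at 0.766, 0.865, 0.693, 0.789 and 0.964 normalized FPKM in birds B1 to B5, 1.06, 0.705, 0.792, 0.764 and 0.622 in birds C1 to C5, and 0.630, 0.663, 0.474, 0.640 and 0.482 in birds A1 to A5. The lowest bird of group B, B3, exceeded the highest of group A, A2, by a small margin, and C1 was the highest of the 15 birds. Its counts were 168 to 236 in group B, 140 to 284 in group C and 71 to 151 in group A. The mean was 0.815 ± 0.103 in group B, 0.789 ± 0.167 in group C and 0.578 ± 0.0919 in group A (SD, n = 5 each). For ATG7, the log2 fold change in group B was 0.50 (SE 0.18, 95% interval 0.13 to 0.87, edgeR adjusted p = 0.425), and in group C it was 0.45 (SE 0.18, 95% interval 0.08 to 0.82, edgeR adjusted p = 0.196). ATG7 also had the longest exons of the list, 15395 bases, and with the length trend of each library removed the value was 0.29 for group B and 0.13 for group C. The other 5 genes were between -0.16 (ATG16L1) and 0.43 (ATG10) in group B and between -0.47 (ATG16L1) and 0.22 (ATG10) in group C. ATG16L1 was at 64.4 in A4 and at 20.6 in C2, the highest and lowest birds, and its unadjusted p in group C was 0.0547 with edgeR.

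The ATG4 proteases trim ATG8 proteins before conjugation and release them afterwards. ATG4A was at 5.57 to 8.62 normalized FPKM over the 15 birds, ATG4B at 2.61 to 5.14 and ATG4C at 0.636 to 1.44. Log2 fold changes were 0.15, -0.16 and 0.29 in group B and 0.27, -0.07 and 0.17 in group C, in that order of genes, with adjusted p of at least 0.631 and 0.328 by edgeR.

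The ATG8 family was represented by MAP1LC3A, MAP1LC3B, MAP1LC3C, GABARAPL1 and GABARAPL2, the small proteins that become linked to the autophagosome membrane. In group C, 4 of 5 had a negative log2 fold change, with a median of -0.22, and 2 of 5 were lower at an unadjusted p under 0.05. Of all genes, 49% had a negative value and 11.2% were lower at that limit, and all short genes had a median of -0.20. In group B the median was 0.05, with 0 of 5 at that limit. MAP1LC3B (chromosome 11, 17796381 to 17805114), the isoform used most as a marker of autophagosomes, was at 232, 379, 216, 216 and 211 normalized FPKM in birds B1 to B5, 197, 116, 208, 220.0 and 186 in birds C1 to C5, and 211, 202, 254, 455 and 242 in birds A1 to A5. B2 and A4 lay far above the other birds of their groups, and C2 was the lowest of the 15. Group means were 251 ± 72.3 in group B, 185 ± 40.7 in group C and 273 ± 104 in group A (SD, n = 5 each). For MAP1LC3B, the log2 fold change in group C was -0.56 (SE 0.25, 95% interval -1.09 to -0.03, edgeR adjusted p = 0.24). For MAP1LC3B, the log2 fold change in group B was -0.12 (SE 0.25, 95% interval -0.65 to 0.41, edgeR adjusted p = 0.869), a value that reversed to 0.14 without A4 or without scaling of the libraries. Without A3 and A4 it was -0.23 in group C, with an edgeR p of 0.331.

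GABARAPL2 (chromosome 11, 19904542 to 19912137), an ATG8 protein also known from Golgi transport, was at 22.9, 25.6, 22.5, 17.7 and 17.4 normalized FPKM in birds B1 to B5, 19.6, 14.5, 21.2, 15.6 and 19.3 in birds C1 to C5, and 19.3, 21.0, 26.5, 27.1 and 21.7 in birds A1 to A5. A4 and A3 were the highest birds and C2 was the lowest. For GABARAPL2, the log2 fold change in group C was -0.36 (SE 0.16, 95% interval -0.71 to -0.01, edgeR adjusted p = 0.251), which was -0.19 without A3 and A4 and -0.07 with the length trend removed. For GABARAPL2, the log2 fold change in group B was -0.12 (SE 0.16, 95% interval -0.47 to 0.22, edgeR adjusted p = 0.795), with the opposite sign, 0.10, without scaling of the libraries and 0.03 with the length trend removed.

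MAP1LC3A (chromosome 20, 1419424 to 1432561), the autophagy gene with the highest mean level over the 15 birds, was at 246, 416, 271, 197 and 211 normalized FPKM in birds B1 to B5, 257, 166, 190.4, 248 and 252 in birds C1 to C5, and 253, 176, 349, 302 and 221 in birds A1 to A5. B2 was the highest bird and C2 the lowest, and the ranges of the 3 groups overlapped widely. For MAP1LC3A, the log2 fold change in group B was 0.05 (SE 0.23, 95% interval -0.44 to 0.53, edgeR adjusted p = 0.951), which was -0.17 without B2. For MAP1LC3A, the log2 fold change in group C was -0.22 (SE 0.23, 95% interval -0.71 to 0.26, edgeR adjusted p = 0.599), which was 0.10 without scaling of the libraries and 0.04 without A3 and A4.

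GABARAPL1 (chromosome 1, 79147776 to 79157668), a close relative of GABARAP, was at 11.9, 40.1, 11.0, 11.9 and 19.6 normalized FPKM in birds B1 to B5, 11.9, 13.9, 10.5, 14.8 and 16.2 in birds C1 to C5, and 20.4, 10.3, 19.9, 9.31 and 10.3 in birds A1 to A5. B2 stood above the other 14 birds, which lay between 9.31 and 20.4 and overlapped between the groups. For GABARAPL1, the log2 fold change in group B was 0.43 (SE 0.34, 95% interval -0.29 to 1.14, edgeR adjusted p = 0.636), which was -0.05 without B2, and in group C it was -0.06 (SE 0.34, 95% interval -0.77 to 0.65, edgeR adjusted p = 0.932), which was 0.23 without scaling of the libraries. MAP1LC3C (chromosome 3, 35797595 to 35799581), a scarce isoform, was at 1.65, 1.46, 1.65, 0.953 and 2.42 normalized FPKM in birds B1 to B5, 1.23, 2.68, 2.40, 1.05 and 1.46 in birds C1 to C5, and 0.806, 1.16, 2.0, 2.11 and 1.36 in birds A1 to A5. Low and high birds occurred in all 3 groups. For MAP1LC3C, the log2 fold change in group B was 0.15 (SE 0.37, 95% interval -0.64 to 0.94, edgeR adjusted p = 0.897), and in group C it was 0.26 (SE 0.37, 95% interval -0.53 to 1.05, edgeR adjusted p = 0.714). It was 0.55 in group B and 0.66 in group C without A3 and A4.

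Cargo receptors link ubiquitin-marked or damaged cargo to ATG8 proteins. SQSTM1, NBR1, OPTN and TAX1BP1 bind ubiquitin, and BNIP3 and BNIP3L are mitochondrial receptors known in mammals from hypoxia and from mitophagy. BNIP3L (chromosome 22, 669292 to 682705) was at 6.65, 6.66, 4.29, 6.39 and 6.83 normalized FPKM in birds B1 to B5, 7.32, 6.04, 6.88, 4.57 and 8.16 in birds C1 to C5, and 5.62, 5.52, 5.22, 3.64 and 4.84 in birds A1 to A5. B3 and C4 were low in their groups, and A4 was the lowest of the 15 birds. For BNIP3L, the log2 fold change in group C was 0.41 (SE 0.18, 95% interval 0.02 to 0.79, edgeR adjusted p = 0.244), and in group B it was 0.31 (SE 0.18, 95% interval -0.08 to 0.70, edgeR adjusted p = 0.539).

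BNIP3 (chromosome 6, 35758032 to 35763615) was at 113, 199, 97.2, 62.1 and 105 normalized FPKM in birds B1 to B5, 97.3, 92.5, 63.1, 78.0 and 94.0 in birds C1 to C5, and 83.2, 73.2, 84.5, 91.8 and 77.8 in birds A1 to A5. B2 stood above the other 14 birds, whose values lay between 62.1 and 113, and the 5 birds of group A were close together. Averages were 115 ± 50.8 in group B, 85.0 ± 14.3 in group C and 82.1 ± 7.04 in group A (SD, n = 5 each). For BNIP3, the log2 fold change in group B was 0.49 (SE 0.23, 95% interval -0.01 to 0.99, edgeR adjusted p = 0.471), which was 0.20 without B2, and in group C it was 0.05 (SE 0.23, 95% interval -0.44 to 0.54, edgeR adjusted p = 0.918), which was -0.0038 without C1.

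SQSTM1 (chromosome 13, 14167411 to 14171820), also called p62 and itself degraded by autophagy, was picked out after its values were seen. It was at 86.5, 200.1, 129, 127 and 101 normalized FPKM in birds B1 to B5, 128, 125, 107, 101 and 85.7 in birds C1 to C5, and 94.6, 107, 205, 289.5 and 133 in birds A1 to A5. A4 and A3 were the highest birds with B2, and the other 12 birds lay between 85.7 and 133. On average it was at 129 ± 43.7 in group B, 109 ± 17.6 in group C and 166 ± 81.3 in group A (SD, n = 5 each). For SQSTM1, the log2 fold change in group C was -0.60 (SE 0.29, 95% interval -1.21 to 0.01, edgeR adjusted p = 0.268), and in group B it was -0.36 (SE 0.29, 95% interval -0.97 to 0.25, edgeR adjusted p = 0.636). Without A3 and A4 the log2 fold change was -0.02 in group C and 0.21 in group B.

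OPTN (chromosome 1, 7227292 to 7245393), a receptor for mitochondria and protein aggregates, was at 189, 130.0, 129, 156 and 115 normalized FPKM in birds B1 to B5, 152, 108, 149.9, 156 and 169 in birds C1 to C5, and 113, 221, 135, 114 and 163 in birds A1 to A5. A2 was the highest and C2 the lowest bird, and the ranges of the groups overlapped. For OPTN, the log2 fold change in group B was -0.05 (SE 0.21, 95% interval -0.49 to 0.39, edgeR adjusted p = 0.936), and in group C it was -0.02 (SE 0.21, 95% interval -0.46 to 0.42, edgeR adjusted p = 0.96), values that became 0.11 and 0.22 without scaling of the libraries. TAX1BP1 and NBR1 were among the steadiest genes of the list, at 39.6 to 58.8 and 7.40 to 10.9 normalized FPKM, with log2 fold changes between -0.06 and 0.12 in both groups.

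Single birds stood apart within their groups across many autophagy genes. B2 was the highest of the 15 birds for 9 of 41 autophagy genes (ULK1, ULK2, WIPI2, EPG5, ATG3, MAP1LC3A, GABARAPL1, NBR1 and BNIP3), whereas it was so for 6.48% of all genes. It was above the mean of the other 4 β-alanine birds for 33 of 41 autophagy genes and for 48.1% of all genes. Under 2500 exonic bases B2 was so for 11 of 13 autophagy genes and 58.5% of all genes. Over 5000 bases it was so for 10 of 13 autophagy genes and 36.0% of all genes. The ratio to that mean was 4.52 for ULK1, 2.95 for GABARAPL1, 2.11 for BNIP3, 1.93 for ULK2, 1.92 for WIPI2, 1.81 for SQSTM1, 1.80 for MAP1LC3A, 1.74 for MAP1LC3B and 1.57 for EPG5. These comprise kinases, ATG8 proteins, receptors and membrane proteins, and they lie on 9 different chromosomes. RB1CC1, AMBRA1 and VMP1 were lower in B2 than in every other β-alanine bird. B2 also stood out for genes of the pathway that were not members of the list. It was the highest of the 15 birds for RAB7A (75.4 normalized FPKM), TRIM55 (211), STX17 (8.09) and FOXO4 (29.7), among others, and the lowest for RUBCN (2.78). B2 was noticed after the values were seen, and 1 bird allows no test.

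**Figure D4:**
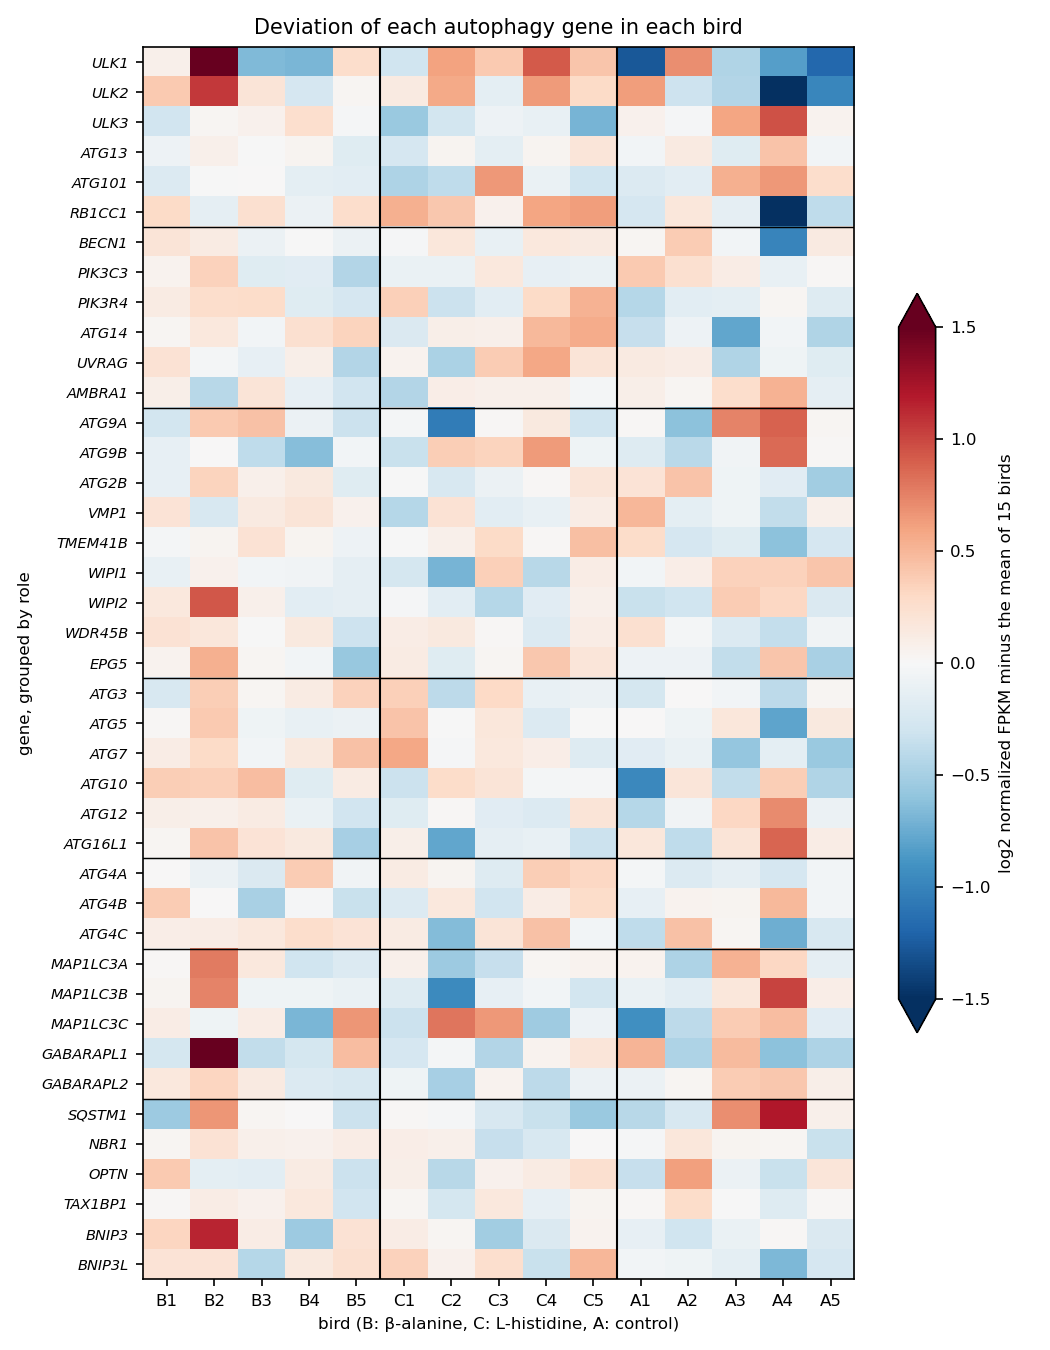
Deviation of the log2 normalized FPKM of 41 autophagy genes (rows, grouped by role) from the mean of 15 birds (columns: group B, then C, then A), with red for higher, blue for lower and the scale limited to 1.5 in either direction. Horizontal lines separate the roles. B2 is red for some genes of every role except the ATG4 proteases, where it lies between -0.09 and 0.11. Among the genes that are blue in B2 are AMBRA1 (-0.42) and VMP1 (-0.24). B2 is the highest bird for 9 genes, A4 is the highest for 12 and the lowest for 10, and C2 is the lowest for 9.

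C2 was the lowest of the 15 birds for 9 of 41 autophagy genes (UVRAG, ATG9A, WIPI1, ATG3, ATG16L1, MAP1LC3A, MAP1LC3B, GABARAPL2 and OPTN), against 14.3% of all genes, and the highest for 1, MAP1LC3C (15.6%). A4 was the highest for 12 (21.5% of all genes) and the lowest for 10 (21.4%). The direction in A3 and A4 went with exonic length. Among the 13 autophagy genes with under 2500 exonic bases, 11 were higher in the mean of A3 and A4 than in the mean of A1, A2 and A5, with a median log2 ratio of 0.61, and 72.4% of all genes of that length were higher, with a median of 0.41. The ratio was 2.22 for SQSTM1, 1.85 for MAP1LC3C, 1.69 for ULK3 and 1.62 for MAP1LC3B. Among the 13 with over 5000 bases, 5 were higher, with a median of -0.21, and 22.6% of all genes of that length, with a median of -0.49. The ratio was 0.54 for ULK2 and 0.62 for RB1CC1. ATG9A, with 4549 bases, had a ratio of 1.97.

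The fold changes in group C were also split by length. There, the 13 short autophagy genes had a median log2 fold change of -0.20, against -0.20 for all 4603 short genes, and the 13 long ones had 0.17, against 0.21 for all 3243 long genes. In group B the medians were 0.05 for the short autophagy genes, against -0.13 for all short genes, and 0.12 for the long ones, against 0.10. Without A3 and A4, the medians of the short and the long autophagy genes were 0.21 and 0.15 in group B and 0.04 and 0.07 in group C. For all short and all long genes they were then 0.06 and -0.03 in group B and -0.02 and 0.05 in group C. The fibre markers were also high in A4, which had the highest summed fibre level, and 4 of the 5 tested fibre markers were lower in group C at an unadjusted p under 0.05 with edgeR (11.2% of all genes), with a median log2 fold change of -0.69 and 0 of 5 passing the adjusted limit. Of the endothelial markers, 3 of 6 were higher in group C at this limit (7.98% of all genes) and 1 was lower, with a median of 0.31. The 8 immune markers had a median log2 fold change of 0.51 in group B and 0.61 in group C. At this limit, 0 of 8 immune markers were higher in group B (4.47% of all genes) and 1 of 8 in group C, and 0 were lower in either group. In group B, 4 of 6 adipocyte markers were lower at this limit, against 6.17% of all genes. PLIN1, FABP4, CIDEC and THRSP were highest of the 15 birds in A5. PLIN1 was at 45.8 normalized FPKM in A5 and at 0.226 to 6.82 in A1 to A4, and FABP4 at 239 and 3.36 to 35.5. ADIPOQ averaged 36.9 in group B and 41.1 in group A. Values of these markers without A5 are not given here. The part of the marker values in the fold changes of autophagy genes was not tested. The fits without A3 and A4 and with the length trend removed hold no term for cell type.

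**Figure D5:**
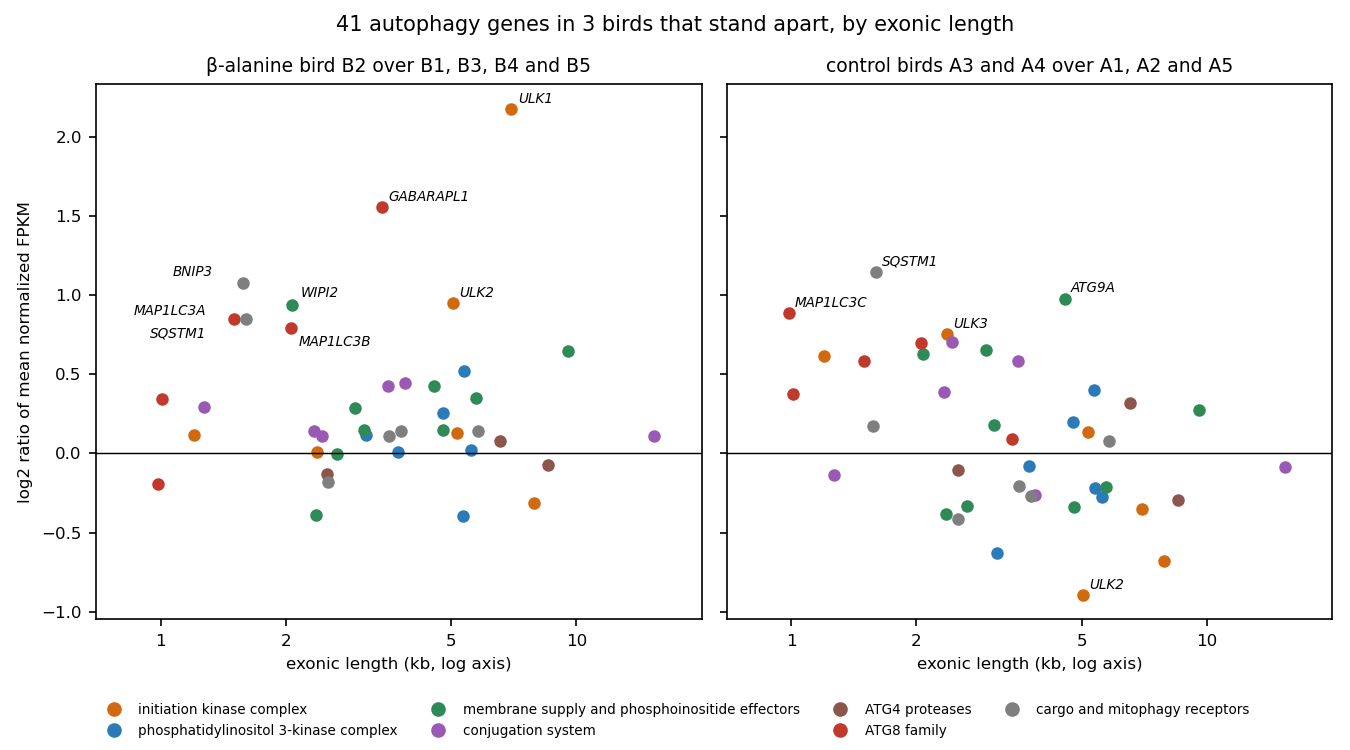
Log2 ratio of the mean normalized FPKM (vertical axis) against exonic length in kb (log axis) for 41 autophagy genes, coloured by role, for bird B2 over the other 4 β-alanine birds (left) and for birds A3 and A4 over the other 3 non-supplemented birds (right). Genes with an absolute log2 ratio over 0.75 are named. In B2 high genes occur at all lengths, up to a ratio of 4.52 for ULK1, whereas in A3 and A4 genes under 2.5 kb are mostly above 0 and genes over 5 kb are mostly below it.

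Between the supplements, no autophagy gene differed past the adjusted limit with edgeR, 0 of 41 at an adjusted or an unadjusted p under 0.05, and 0 of 11861 genes (0%) passed the adjusted limit. At the unadjusted limit, group C was higher than group B for 2.51% of all genes and lower for 1.51%, and DESeq2 called 0 genes. No autophagy gene was without overlap between groups C and B (0.438% of all genes higher and 0.278% lower), and 0 of 41 differed by a fold of at least 1.5 in either direction, against 5.23% of all genes higher and 3.49% lower. The median log2 fold change of group C over group B was -0.05 for the autophagy genes and 0.01 for all genes. Within a 2-fold difference lay 39 of 41 intervals of the autophagy genes and 8611 of 11861 intervals of all genes. The 4 genes with the smallest p were ATG9B, BNIP3, MAP1LC3B and ULK3. For ATG9B the log2 fold change was 0.45 (SE 0.24, 95% interval -0.05 to 0.95, edgeR adjusted p = 0.983), and for BNIP3 the log2 fold change was -0.44 (SE 0.23, 95% interval -0.94 to 0.05, edgeR adjusted p = 0.983). For MAP1LC3B the log2 fold change was -0.44 (SE 0.25, 95% interval -0.97 to 0.09, edgeR adjusted p = 0.983), and for ULK3 the log2 fold change was -0.34 (SE 0.20, 95% interval -0.77 to 0.08, edgeR adjusted p = 0.983). Without B2 the value was -0.15 for BNIP3 and -0.24 for MAP1LC3B. The intervals of ATG7 (-0.41 to 0.32) and ATG14 (-0.31 to 0.46) were within a 1.5-fold difference in either direction, while that of ULK1 (-1.12 to 0.88) allowed more than a 2-fold difference.

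Regulators and partners of the pathway that were not members of the list were read from a list of which 49 genes had a row and were tested. None passed edgeR's adjusted limit. At an unadjusted p under 0.05, 3 were higher and 3 lower in group B, 3 were higher and 3 lower in group C, and 1 was higher in group C than in group B. The shares of all genes at this limit were 4.47% higher and 6.17% lower in group B, 7.98% and 11.2% in group C, and 2.51% higher in group C over group B. DESeq2 called 0 of them in group B and 2 in group C, PRKAA2, which was lower (1.9% of the 7842 genes with a DESeq2 adjusted p), and TSC1, which was higher (0.969%). The median log2 fold change was 0.02 in group B and -0.01 in group C.

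TSC1, a subunit of the complex that restrains mTORC1, which in turn holds back autophagy, was at 9.64, 8.97, 8.35, 9.11 and 7.62 normalized FPKM in birds B1 to B5, 10.3, 7.20, 6.21, 9.21 and 10.3 in birds C1 to C5, and 7.26, 6.16, 3.87, 4.38 and 5.80 in birds A1 to A5. All birds of group B were above all birds of group A, against 0.852% of all genes that were higher without overlap. Of group C only C2 and C3 were within the range of group A. A3 and A4 were the lowest of the 15 birds. For TSC1, the log2 fold change in group B was 0.67 (SE 0.19, 95% interval 0.27 to 1.06, edgeR adjusted p = 0.346), and in group C it was 0.65 (SE 0.19, 95% interval 0.26 to 1.05, edgeR adjusted p = 0.17), where DESeq2 gave an adjusted p of 0.0453. Leaving out A3 gave 0.57 in group B and 0.55 in group C. Over all alternatives, which include fits without scaling, the values of TSC1 ran from 0.45 to 0.84 in group B and from 0.44 to 0.92 in group C. Leaving out 1 bird at a time, they ran from 0.57 to 0.79 in group B and from 0.55 to 0.77 in group C. PRKAA2, the catalytic subunit of the energy sensor AMPK that is most abundant in mammalian muscle, was at 7.01, 19.2, 12.3, 16 and 11.8 normalized FPKM in birds B1 to B5, 10.1, 7.97, 15.2, 10.2 and 8.24 in birds C1 to C5, and 21.2, 20.4, 14.0, 31.5 and 18.2 in birds A1 to A5. A4 was the highest and B1 the lowest of the 15 birds, and C3 and B2 were the high birds of the supplemented groups. For PRKAA2, the log2 fold change in group C was -1.02 (SE 0.27, 95% interval -1.59 to -0.46, edgeR adjusted p = 0.17), where DESeq2 gave an adjusted p of 0.0226, and in group B it was -0.67 (SE 0.27, 95% interval -1.23 to -0.11, edgeR adjusted p = 0.437).

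FOXO1, a transcription factor known in mouse muscle to drive atrophy and autophagy genes, was at 7.19, 3.34, 1.77, 5.77 and 3.01 normalized FPKM in birds B1 to B5, 2.01, 2.92, 2.45, 5.05 and 5.74 in birds C1 to C5, and 2.73, 2.0, 1.26, 0.995 and 1.30 in birds A1 to A5. All birds of both supplemented groups were above the mean of group A, 1.66, but B3, C1 and C3 were under A1. For FOXO1, the log2 fold change in group B was 1.34 (SE 0.39, 95% interval 0.52 to 2.16, edgeR adjusted p = 0.375), and in group C it was 1.12 (SE 0.39, 95% interval 0.31 to 1.94, edgeR adjusted p = 0.179). FOXO4, of the same family, was at 15.4, 29.7, 19.8, 16.1 and 17.3 normalized FPKM in birds B1 to B5, 19.3, 13.3, 14.6, 21.0 and 18.6 in birds C1 to C5, and 16.7, 11.3, 13.1, 17.1 and 13.5 in birds A1 to A5, with B2 as the highest bird. For FOXO4, the log2 fold change in group B was 0.46 (SE 0.20, 95% interval 0.03 to 0.88, edgeR adjusted p = 0.445), which was 0.26 without B2, and in group C it was 0.27 (SE 0.20, 95% interval -0.15 to 0.70, edgeR adjusted p = 0.445). YKT6, a SNARE protein for the fusion of autophagosomes with lysosomes, was at 15.1, 22.4, 13.6, 15.3 and 15.0 normalized FPKM in birds B1 to B5, 11.5, 15.4, 13.2, 16 and 10.7 in birds C1 to C5, and 11.9, 20.9, 26.1, 33.2 and 16 in birds A1 to A5, with A4 and A3 as the highest birds. For YKT6, the log2 fold change in group C was -0.69 (SE 0.24, 95% interval -1.20 to -0.17, edgeR adjusted p = 0.183), and in group B it was -0.40 (SE 0.24, 95% interval -0.92 to 0.11, edgeR adjusted p = 0.541). Without A3 and A4, its log2 fold change in group C was -0.28.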

How the data were processed

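Poly(A) RNA of the breast muscle of 15 female KRC was sequenced, 1 library per bird. Reads were trimmed (cutadapt 1.9.1), mapped by HISAT2 2.0.1 on GRCg6a and assigned to genes by HTSeq 0.6.1, and the deposited count of a gene is a whole number without normalization. The authors' FPKM divide this count by exonic length and library total, and recomputation matched all 262125 deposited FPKM within 0.0051. Strand use and the handling of multi-mapped reads are not given in the sources used here. Coordinates are those of the deposited table on GRCg6a, and chromosome names were looked up by symbol in a later assembly.

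Libraries were scaled with relative log expression factors. The 11861 genes whose FPKM averaged 0.2 or more were fitted together in edgeR 4.0.16 (R 4.3.3, quasi-likelihood, 15 birds, no covariate, 12 residual degrees of freedom). P-values are two-sided and were adjusted by the Benjamini–Hochberg method over all genes tested. Genes were called at an adjusted p below 0.05 together with a change of 1.5-fold or more. Standard errors were taken from the F statistic. DESeq2 1.42.0 (genes with at least 1 count) and limma 3.58.1 (log2 of the deposited FPKM plus 1, unscaled) were alternatives, beside other scalings and filters, robust fitting, 2 groups only, a replicate block, the removal of birds and, added after seeing the data, the removal of each library's length trend.

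Members, roles and lists were chosen with earlier results of these data known. Values per bird are given for the 8 members with the smallest p in each comparison with group A, the 4 with the smallest p between the supplements, calls of DESeq2, the ATG8 family, the 3 genes with the highest level and, of the other pathway genes, the 4 with the smallest p in each comparison with group A. SQSTM1 and WIPI2 were added after their values were seen. The replicate numbers were not treated as pairs in the main fit. Correlations of deviations within a number ran from -0.0779 to 0.247 between groups B and A. They ran from -0.104 to 0.135 between C and A and from -0.239 to 0.0486 between C and B. Birds with different numbers were not correlated for comparison, so these values cannot show whether the numbers pair the birds. Protein and promoter sequences were not used here.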

Additional observations from a re-analysis of the deposited data

Results flagged for a closer look

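In 18 named autophagy genes, each of the 3 groups of 5 birds was examined for a bird whose gap to its nearest neighbour was a large share of the range of the group (Dixon's criterion at 95%). It was met in 7 of 54 groups. Chance meets it in about 1 group of 20, but these groups share the same birds and include SQSTM1 and WIPI2, which were picked out after their values were seen, so the count cannot be read against that share. In group B, B2 was the highest bird for ULK1 (11.5 normalized FPKM, against 1.79 to 3.47 in the other 4 birds), for MAP1LC3B (379, against 211 to 232) and for WIPI2 (43.7, against 20.5 to 25.6), and B3 was the lowest for BNIP3L (4.29, against 6.39 to 6.83). In group A, A2 was the highest for ULK1 (4.68, against 1.20 to 2.10), and A4 was the highest for MAP1LC3B (455, against 202 to 254) and for ATG9B (62.2, against 26.0 to 34.9). No bird of group C met it. What sets these birds apart was not tested.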

How the results depend on the processing

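For 48 results of single genes, 1002 alternative values were computed, of which 957 kept their direction and their side of the threshold, 42 reversed in 14 results and 3 passed the threshold only there. No autophagy gene passed with edgeR under any alternative or with limma. With DESeq2 ULK3 (-0.71), PRKAA2 (-1.03) and TSC1 (0.64) passed in group C, so that 1 autophagy gene was called lower. Over all genes, DESeq2 called 27 genes higher and 29 lower for group B, against 76 higher and 149 lower for group C. Limma called 1 higher and 1 lower in group B, and a fit of 2 groups only called 1 lower in group C. Leaving out 1 bird at a time gave 0 to 1 genes called lower in group B (1 without B2 and 1 without B4) and 0 to 2 in group C (2 without C3). The number of autophagy genes at an unadjusted p under 0.05 ran from 1 to 10 higher in group B, and in group C from 2 to 14 higher and from 0 to 6 lower, over all alternatives. Leaving out 1 bird at a time, it ran from 1 to 5 higher and 0 to 1 lower in group B. In group C it then ran from 2 to 6 higher and from 1 to 6 lower. The shares of all genes in these fits are not given here, so the counts cannot be read as a result about the autophagy genes.

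Dropping the scaling moved the median over all genes to 0.18 in group B and 0.29 in group C, and in that fit the small values of several genes took the opposite sign. These were, in group B, MAP1LC3B (0.14), GABARAPL2 (0.10) and OPTN (0.11) and in group C MAP1LC3A (0.10), GABARAPL1 (0.23), OPTN (0.22) and WIPI2 (0.20). The unscaled FPKM used with limma also had medians above 0 over all genes, 0.13 in group B and 0.19 in group C, and the sign reversed in group B for MAP1LC3B (0.12), GABARAPL2 (0.083) and OPTN (0.19) and in group C for MAP1LC3A (0.091), GABARAPL1 (0.28), OPTN (0.30) and WIPI2 (0.18). Without A3 and A4 it reversed in group B for MAP1LC3B (0.20), GABARAPL2 (0.041) and SQSTM1 (0.21) and in group C for MAP1LC3A (0.043) and WIPI2 (0.15). With the length trend removed it reversed for GABARAPL2 in group B (0.026) and in group C for MAP1LC3A (0.0047), OPTN (0.024) and WIPI2 (0.0016), and with a filter at a mean FPKM of 1 for OPTN in group C (0.019). The cause of the reversals was not tested.

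Leaving out 1 bird at a time, log2 fold changes in group B ran from -0.32 to 0.14 for MAP1LC3B, from -0.17 to 0.17 for MAP1LC3A, from -0.041 to 0.29 for MAP1LC3C, from -0.047 to 0.60 for GABARAPL1, from -0.17 to 0.13 for OPTN and from -0.013 to 0.34 for WIPI2. In group C they ran from -0.0038 to 0.14 for BNIP3, from -0.0064 to 0.38 for ATG9B, from -0.18 to 0.11 for GABARAPL1 and from -0.11 to 0.16 for OPTN.

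The replicate number as a block in edgeR left 0 genes called in every comparison. The autophagy genes at an unadjusted p under 0.05 then numbered 4 higher and 0 lower for group B, against 6 higher and 2 lower for group C. The shares of all genes at that limit with the block are not given here. The smallest edgeR adjusted p of an autophagy gene was that of ULK3 in group C (-0.68, adjusted p = 0.156). The depth limits most the genes with the fewest counts per bird, ULK4 (3 to 24), MAP1LC3C (10 to 47) and ATG10 (20 to 71).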

Other observations

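Among the other genes of the pathway, 4 were picked out after their values were seen, and none of them passed edgeR's adjusted limit. VPS16, a core subunit of the HOPS and CORVET tethering complexes, was at 24.1, 29.2, 18.5, 26.9 and 18.6 normalized FPKM in birds B1 to B5, 17.9, 31.8, 22.1, 21.9 and 20.2 in birds C1 to C5, and 22.3, 23.6, 40.2, 54.5 and 28.3 in birds A1 to A5. A4 and A3 were the highest of the 15 birds, and the log2 fold change of VPS16 was -0.53 (SE 0.24, edgeR adjusted p = 0.457) in group B and -0.57 (SE 0.24, edgeR adjusted p = 0.224) in group C. The values of VPS16 without A3 and A4 are not given here. VPS39, another subunit of HOPS, was at 4.16, 3.61, 3.30, 4.59 and 3.08 normalized FPKM in birds B1 to B5, 3.63, 3.37, 3.70, 5.34 and 5.33 in birds C1 to C5, and 3.14, 3.32, 1.97, 3.13 and 3.33 in birds A1 to A5. Every bird of group C was above every bird of group A, the lowest by a small margin, and A3 was the lowest of the 15. Of all genes, 0.978% were higher without overlap in group C. The log2 fold change of VPS39 was 0.52 (SE 0.19, edgeR adjusted p = 0.184) in group C and 0.33 (SE 0.19, edgeR adjusted p = 0.532) in group B.

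RUBCN, which restrains the UVRAG-containing kinase complex in mammals, was at 3.02, 2.78, 4.11, 4.40 and 3.61 normalized FPKM in birds B1 to B5, 3.94, 5.03, 4.02, 5.91 and 4.67 in birds C1 to C5, and 3.66, 4.42, 3.67, 4.36 and 3.97 in birds A1 to A5. The log2 fold change of RUBCN in group C over group B was 0.40 (SE 0.16, edgeR adjusted p = 0.983), and C1 and C3 were below the highest birds of group B. RUBCNL, its relative, was at 1.76, 1.83, 2.01, 1.56 and 2.19 normalized FPKM in birds B1 to B5, 2.34, 3.53, 2.04, 2.31 and 1.56 in birds C1 to C5, and 2.50, 2.72, 2.34, 3.83 and 1.99 in birds A1 to A5. The birds of group B lay between 1.56 and 2.19 and overlapped with A5, and the log2 fold change of RUBCNL in group B was -0.51 (SE 0.23, edgeR adjusted p = 0.446).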
